A study of Mus musculus with 13 samples.

Results

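The genes described here are 37 mouse genes known to be raised by interferon, followed through kidney RNA of mice labelled Spns1 KO, WT and FeO. They were taken from the gene table by a given list of symbols, which was drawn up with earlier results of these data known and sets no threshold on a value. All 37 were among the 35013 genes in the table, and all 37 passed the filter on low counts that left 16468 genes for testing. The mean estimated count per library ranged from 21.3 for Zbp1 to 2289 for Rnf213.

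RNA was from kidneys of female mice (C57Bl6 by the methods), in 4 Spns1 KO libraries (Megalin3'Cre-Ert;Spns1 fl/fl;Uprt fl/+), 5 WT libraries and 4 FeO libraries. The methods give WT and FeO mice as Megalin3'Cre-Ert;Spns1 fl/+;Uprt fl/+, so that by the methods the controls also carried the Cre driver, the Uprt transgene and 1 floxed Spns1 allele, whereas their genotype label is Spns1 WT. FeO mice had in addition received intraperitoneal iron sucrose, 12 mg a day (elemental iron by the methods) for 3 days, with euthanasia 1 week after. All mice carried a Cre that tamoxifen activates in cells with an active megalin promoter, chiefly the proximal tubule, and ages were not given in the sources used here. In those cells the uracil phosphoribosyltransferase transgene lets 4-thiouracil enter new RNA, which was biotinylated, captured on streptavidin and selected for poly-A tails. Total counts ranged from 23068023 to 71296474 per library. Spns1 itself had 36.6 to 59.0 CPM (counts scaled to library size) in libraries labelled Spns1 KO and 39.2 to 62.9 CPM in WT (log2 fold change -0.31, standard error 0.18, adjusted p = 0.225), so its counts did not set the groups apart. The table holds 1 count for the whole gene, whereas the floxed allele described in the methods has its loxP sites around an exon. The paper reports loss of Spns1 RNA and SPNS1 protein in the proximal tubule of its conditional knockout. Spns1 KO is used below as the label gives it.

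Interferons are secreted cytokines that signal through receptor chains and Janus kinases to the STAT factors. Type I and type III interferon act through a complex that holds Stat2 and Irf9 and binds the interferon-stimulated response element, and the response to interferon gamma runs through the gamma-activated site. The genes they raise sense foreign nucleic acid, block viral entry, RNA and budding, attack vacuoles that hold pathogens, and change which peptides are cut for presentation.

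The response element was searched as its core GAAANNGAAA, on both strands, in the 300 bases around gene starts (250 before and 50 after, RefSeq, GRCm38.p6). Of the 37 genes, 30 had a promoter in that table. The core lay in 15 of the 30 (50%), against 3.99% of 27025 genes in the table and 3.44% of its 32851 promoters. The core of the gamma-activated site, searched as TTCNNNGAA, was in 9 of the 30 (30.0%), against 9.55% of genes. The 4 promoters below are shown because they belong to genes with different behaviour in these libraries. Bst2 and Gbp3 rose in both models, Rsad2 passed the test in Spns1 KO only and Isg15 in neither. They lie at chr8:71537423-71537722 (Bst2, minus strand), chr3:142559794-142560093 (Gbp3, plus strand), chr12:26456403-26456702 (Rsad2, minus strand) and chr4:156200769-156201068 (Isg15, minus strand). Each is written 5' to 3' on the gene's strand, with matches to the core of the response element on either strand in capitals.
Bst2: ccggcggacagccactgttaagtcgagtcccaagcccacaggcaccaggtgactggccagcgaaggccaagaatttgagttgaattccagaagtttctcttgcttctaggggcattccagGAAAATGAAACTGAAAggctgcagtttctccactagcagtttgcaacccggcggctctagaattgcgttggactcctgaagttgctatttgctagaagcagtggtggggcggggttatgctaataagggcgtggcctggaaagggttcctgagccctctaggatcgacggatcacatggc
Gbp3: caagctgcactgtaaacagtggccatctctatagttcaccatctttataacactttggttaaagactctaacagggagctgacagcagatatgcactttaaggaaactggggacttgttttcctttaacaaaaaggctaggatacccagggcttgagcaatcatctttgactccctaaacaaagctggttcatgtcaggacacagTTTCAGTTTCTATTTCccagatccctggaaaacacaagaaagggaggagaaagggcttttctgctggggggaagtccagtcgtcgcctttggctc
Rsad2: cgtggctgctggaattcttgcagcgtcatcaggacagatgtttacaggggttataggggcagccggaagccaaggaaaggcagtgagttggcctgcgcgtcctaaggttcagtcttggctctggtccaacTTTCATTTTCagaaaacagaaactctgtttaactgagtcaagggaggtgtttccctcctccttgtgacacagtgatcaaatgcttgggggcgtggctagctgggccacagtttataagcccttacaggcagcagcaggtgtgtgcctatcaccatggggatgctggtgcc
Isg15: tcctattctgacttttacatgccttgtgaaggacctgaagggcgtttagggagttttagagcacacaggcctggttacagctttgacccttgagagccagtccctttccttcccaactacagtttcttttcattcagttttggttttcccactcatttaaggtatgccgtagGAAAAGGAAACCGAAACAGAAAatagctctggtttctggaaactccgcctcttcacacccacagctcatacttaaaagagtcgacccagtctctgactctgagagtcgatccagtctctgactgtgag
Counted from the first base of the gene as 0, the first core began at -130 in Bst2, -45 in Gbp3, -120 in Rsad2 and -78 in Isg15. Overlapping matches gave 2 cores in Bst2, 2 in Gbp3 and 3 in Isg15, and Rsad2 held 1. The core was in 9 of the 15 matched genes upregulated in Spns1 KO and in 6 of the 15 matched genes that were not. Among matched genes upregulated in FeO it was in 7 of 11. A match is a stretch of letters, and binding was not measured.

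Before the comparisons, each library was scored by the median, over the 37 genes, of the log2 ratio of its CPM to the WT mean (0.1 CPM added to both). WT 1 to 4 lay between -0.15 and -0.04, whereas WT 5 stood at 0.36 and was the highest of the 5 WT libraries for 26 of the 37 genes. FeO 1, 2 and 3 lay between 0.07 and 0.14, whereas FeO 4 stood at 0.73 and was the highest FeO library for 23 genes. The 4 Spns1 KO libraries lay at 0.46, 0.63, 0.78 and 0.47, all above WT 5. Over all 16468 genes the same median stayed between -0.09 and -0.003 in every library. WT 5 and FeO 4 thus stood apart from their groups in these genes, and counts are given with and without them.

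**Figure D1:**
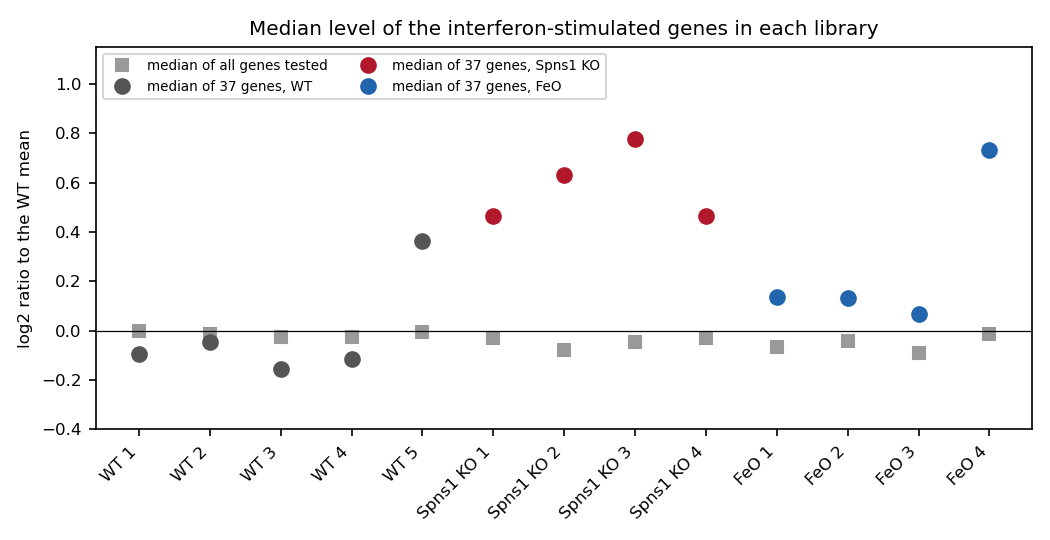
The vertical axis is the median log2 ratio to the WT mean, over the 37 interferon-stimulated genes (circles) and over all genes tested (squares), for each of the 13 libraries on the horizontal axis. WT 5, at 0.36, lies above the other WT libraries, FeO 4, at 0.73, lies above the other FeO libraries, and the 4 Spns1 KO libraries lie between 0.46 and 0.78.

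Relative to WT, 16 of the 37 genes were upregulated in Spns1 KO (43.2%, against 14% of all genes tested) and 0 were downregulated (against 7.55%). A gene was called when its adjusted p (edgeR quasi-likelihood test, Benjamini-Hochberg over all genes) was under 0.05 and the log2 fold change exceeded 0.5 in size. At an unadjusted p under 0.05, 0 genes were lower by edgeR, DESeq2 or limma-voom, a count given here without a matching share of all genes. DESeq2 and limma-voom also called 0 downregulated (against 9.76% and 9.28% of all genes). The median log2 fold change was 0.73, against -0.04 over all genes tested, and 30 of the 37 values were positive. For 13 genes every Spns1 KO library lay above every WT library (13.1% of all genes did so), and for 0 every one lay below (9.38%). Without WT 5 the count was 19 (13.6% of all genes were then called), and without Spns1 KO 3, the library with the highest median, it was 9 (9.18% of all genes). The count was also 11 without Spns1 KO 2, WT 2 or WT 3 (9.91%, 11.9% and 10.6% of all genes). It was 9 when library totals alone set the scale (10.6% of all genes).

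In FeO, 12 of the 37 genes were upregulated (32.4%, against 22.4% of all genes) and 4 were downregulated (10.8%, against 19.7%). The median log2 fold change was 0.35, against -0.01 over all genes, and 26 values were positive. Every FeO library lay above every WT library for 3 genes, Ifitm2, Gbp2 and Psmb10 (16.9% of all genes did so), and below for Mx1, Rnf213 and Parp14 (16.4%). Leaving out FeO 4 changed the counts to 10 upregulated and 7 downregulated (22.9% and 18.6% of all genes), and leaving out WT 5 to 13 and 2 (22.8% and 18.0%). The number downregulated was likewise 2 without WT 1, WT 2, WT 3, FeO 1 or FeO 3. The shares of all genes downregulated were then 17.3%, 17.0%, 15.6%, 14% and 15.4%, in that order. The comparisons of both models use the same 5 WT libraries, so their calls are not independent of each other.

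**Figure D2:**
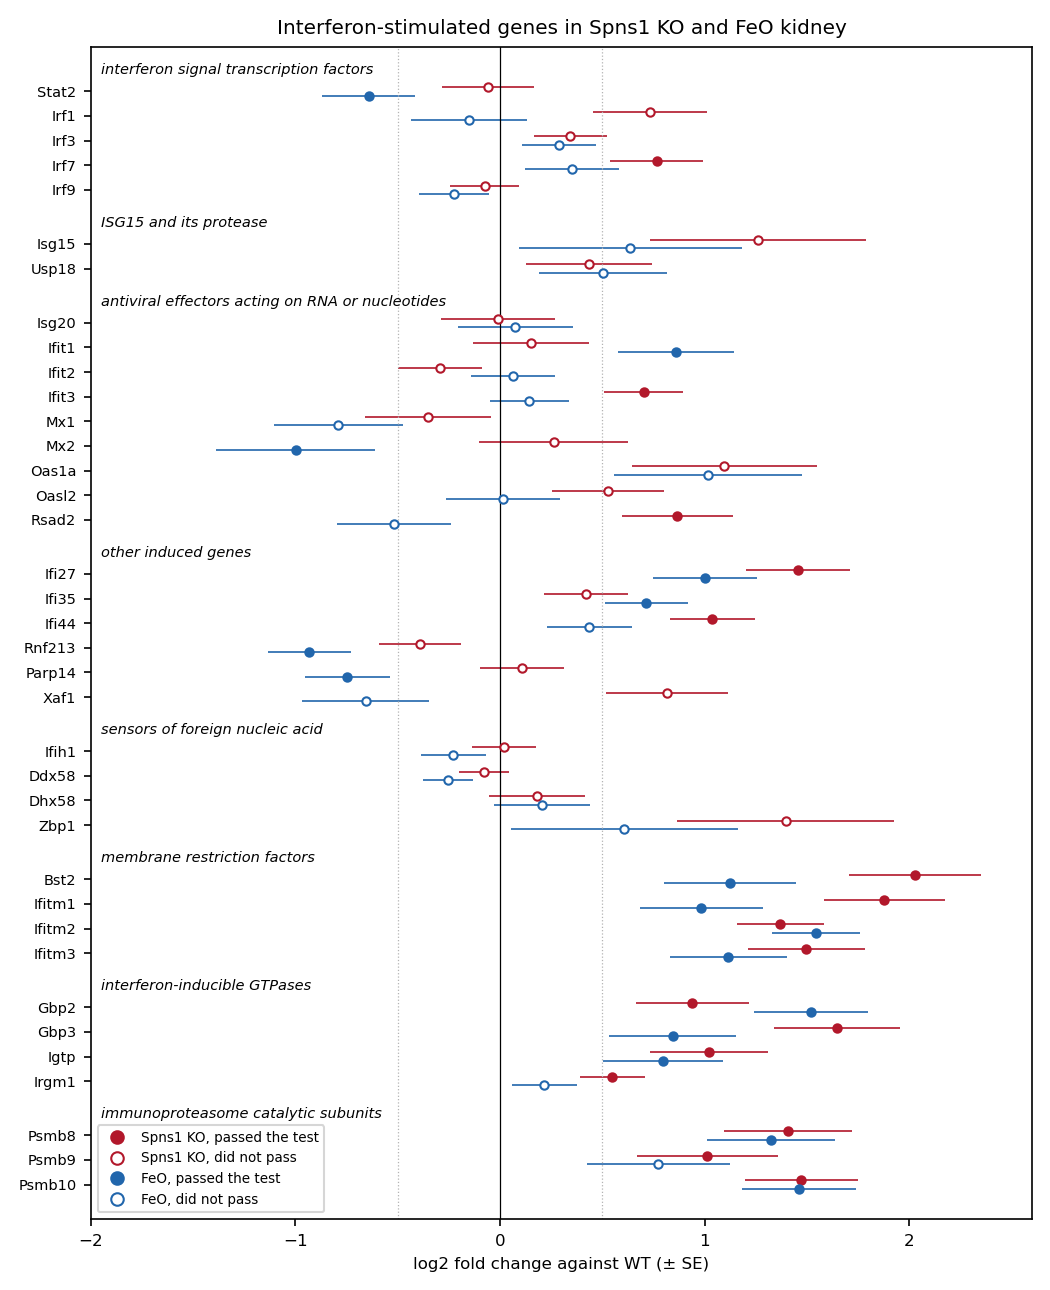
The horizontal axis is the log2 fold change against WT with its standard error, for Spns1 KO (red) and FeO (blue), and the genes are grouped by role on the vertical axis. Filled points passed the test and dotted lines mark a log2 fold change of 0.5 in either direction. The 4 membrane restriction factors are filled in both models and the 4 sensors in neither. Of all genes tested, 14% rose and 7.55% fell in Spns1 KO, and 22.4% and 19.7% in FeO.

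All 4 membrane restriction factors were upregulated in both models (against 14% of all genes in Spns1 KO and 22.4% in FeO). With each library's trend on transcript length and GC content removed, the 4 kept the call in Spns1 KO, whereas in FeO only Ifitm2 did (0.99), Bst2, Ifitm1 and Ifitm3 falling to values of 0.56, 0.47 and 0.58 that did not pass. As fitted without that step, Bst2 and Ifitm1 had the largest changes of the 37 genes in Spns1 KO. Bst2 (tetherin, which holds budding virus particles at the cell surface; chromosome 8 from 71534255 to 71537456) had 1.2, 1.51, 1.10, 0.918 and 1.70 CPM in WT 1 to 5. It had 4.56, 4.52, 7.52 and 4.41 CPM in Spns1 KO 1 to 4 and 3.84, 1.26, 2.21 and 3.90 CPM in FeO 1 to 4. Every Spns1 KO library was thus above every WT library, and FeO 2 lay within the WT range. On the log2 scale Bst2 rose by 2.03 in Spns1 KO (standard error 0.32, adjusted p = 0.000784) and by 1.12 in FeO (0.32, adjusted p = 0.0117). The Ifitm proteins hinder fusion of viral with cell membranes. Ifitm1 (chromosome 7 from 140967221 to 140969825) had 1.33, 1.97, 1.07, 1.70 and 2.28 CPM in WT, 6.84, 6.98, 7.21 and 3.52 CPM in Spns1 KO and 4.82, 2.53, 2.25 and 3.56 CPM in FeO. Again all Spns1 KO libraries exceeded WT, with Spns1 KO 4 the lowest of them, and FeO 3 fell just inside the WT range. Ifitm1 thus rose by 1.88 in Spns1 KO (standard error 0.30, adjusted p = 0.000784) and by 0.98 in FeO (0.30, adjusted p = 0.0156), the latter a call lost without FeO 1.

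Ifitm2 (chromosome 7 from 140954837 to 140955987) had 10.4, 10.2, 8.41, 11.1 and 15.3 CPM in WT, 29.5, 29.9, 34.3 and 20.9 CPM in Spns1 KO and 41.9, 23.7, 25.7 and 38.0 CPM in FeO. It did not overlap WT in either model, and it was the restriction factor with the larger change in FeO (1.54, standard error 0.21, adjusted p = 0.000393) than in Spns1 KO (1.37, 0.21, adjusted p = 0.000736), though the models did not differ by the test between them (log2 difference -0.17, standard error 0.22, adjusted p = 0.618). Ifitm3 (chromosome 7 from 141009586 to 141010770) had 3.24, 3.23, 2.96, 3.64 and 5.52 CPM in WT, 10.6, 10.3, 14.2 and 6.77 CPM in Spns1 KO and 11.4, 4.90, 5.76 and 10.1 CPM in FeO. WT 5 was its highest WT library and reached above FeO 2. Ifitm3 rose by 1.5 in Spns1 KO (standard error 0.29, adjusted p = 0.00234) and by 1.12 in FeO (0.29, adjusted p = 0.00608). Counts of Ifitm2 and Ifitm3 are less certain than the others, since transcripts of other genes, Gm45717 and Gm7676 foremost, hold 55.5% and 20.5% of their stretches of 31 bases.

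The interferon-inducible GTPases gather on the vacuoles of intracellular pathogens. They were upregulated in 4 of 4 cases in Spns1 KO and 3 of 4 in FeO (against 14% and 22.4% of all genes). Gbp3 (chromosome 3 from 142560026 to 142573209) had 10.4, 10.7, 11.3, 10.3 and 9.92 CPM in WT, and 28.7, 39.3, 30.8 and 33.1 CPM in Spns1 KO. In FeO it had 9.48, 11.1, 16.2 and 38.8 CPM, so that FeO 4 reached the Spns1 KO range while FeO 1 lay below every WT library. Gbp3 rose by 1.65 in Spns1 KO (standard error 0.31, adjusted p = 0.00214) and by 0.84 in FeO (0.31, adjusted p = 0.0369), where it was 0.25 and not called without FeO 4. Leaving out any WT library also ended the FeO call. Gbp2 (chromosome 3 from 142620602 to 142638008) had 2.78, 2.80, 2.36, 4.24 and 4.98 CPM in WT, with 6.84, 5.33, 10.1 and 4.11 CPM in Spns1 KO and 11.4, 7.62, 11.2 and 8.92 CPM in FeO. All FeO libraries exceeded WT, whereas Spns1 KO 4 fell inside the WT range. Gbp2 rose by 1.52 in FeO (standard error 0.28, adjusted p = 0.00089) and by 0.94 in Spns1 KO (0.28, adjusted p = 0.0246; not called without Spns1 KO 1 or 3 or WT 1, 2 or 3), and the difference between the models did not pass the test (-0.58, standard error 0.29, adjusted p = 0.18).

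Igtp (chromosome 11 from 58199556 to 58207591), an immunity-related GTPase, had 3.46, 3.11, 3.65, 4.13 and 8.61 CPM in WT, 7.47, 8.17, 13.4 and 8.23 CPM in Spns1 KO and 10.1, 8.37, 6.94 and 6.37 CPM in FeO. WT 5 was more like the other groups than like WT 1 to 4. Igtp rose by 1.02 in Spns1 KO (standard error 0.29, adjusted p = 0.0204) and by 0.80 in FeO (0.29, adjusted p = 0.0365). It was not called in Spns1 KO without Spns1 KO 3, WT 2 or WT 3, nor in FeO without any of WT 1 to 4, FeO 1 or FeO 2. Irgm1, a related GTPase that controls the others, ranged from 23.5 to 35.8 CPM in WT, 31.8 to 49.2 in Spns1 KO and 29.3 to 36.1 in FeO. It was upregulated in Spns1 KO (0.55, standard error 0.16, adjusted p = 0.0219; not called without Spns1 KO 2 or 3 or WT 1 or 2), and its value in FeO was 0.22 (0.16, adjusted p = 0.275). Igtp overlaps Irgm2 and shares 15.9% of its stretches of 31 bases with other genes.

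Psmb8, Psmb9 and Psmb10 replace the standard catalytic subunits Psmb5, Psmb6 and Psmb7 in the immunoproteasome, which cuts proteins into peptides suited to class I antigen presentation. All 3 were upregulated in Spns1 KO and 2 of the 3 in FeO (against 14% and 22.4% of all genes). Psmb8 (chromosome 17 from 34197721 to 34201454) had 1.44, 1.45, 1.23, 1.52 and 2.12 CPM in WT, 3.31, 3.95, 5.38 and 3.85 CPM in Spns1 KO and 4.43, 2.11, 2.45 and 6.56 CPM in FeO. FeO 2 fell just inside the WT range, and Spns1 KO did not overlap it. Psmb8 rose by 1.41 in Spns1 KO (standard error 0.31, adjusted p = 0.00564) and by 1.32 in FeO (0.31, adjusted p = 0.00386). Psmb10 (chromosome 8 from 105935735 to 105938444) had 1.28, 1.45, 0.977, 1.31 and 2.01 CPM in WT, 3.40, 4.49, 5.01 and 2.69 CPM in Spns1 KO and 5.64, 2.76, 3.27 and 3.75 CPM in FeO. Both models lay above WT throughout for Psmb10, by 1.47 on the log2 scale in Spns1 KO (standard error 0.28, adjusted p = 0.00213) and 1.46 in FeO (0.28, adjusted p = 0.00109).

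Psmb9 (chromosome 17 from 34181987 to 34187764) had 0.898, 0.647, 0.977, 0.883 and 2.08 CPM in WT, 1.68, 2.22, 2.14 and 2.78 CPM in Spns1 KO and 1.54, 1.56, 1.34 and 3.04 CPM in FeO. WT 5 lay inside the range of Spns1 KO and FeO 4 above the other FeO libraries, and the changes were 1.01 in Spns1 KO (standard error 0.34, adjusted p = 0.0448) and 0.77 in FeO (0.35, adjusted p = 0.0814). The call in Spns1 KO was lost when any of WT 1 to 4 or any Spns1 KO library was left out. Psmb9 overlaps Tap1 on the opposite strand, and whether the counting used strand was not stated in the sources used here.

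The standard subunits moved as well. Psmb5 rose by 1.31 in Spns1 KO (adjusted p = 0.0103) and 1.60 in FeO (adjusted p = 0.00155), and Psmb6 by 0.67 (adjusted p = 0.0196) and 1.14 (adjusted p = 0.000606). Psmb7 rose by 1.11 in FeO (adjusted p = 0.0011), and its value in Spns1 KO was 0.52 (adjusted p = 0.0902). The ratio of Psmb10 to Psmb7 was 0.0352 to 0.0481 in WT, 0.0688 to 0.0955 in Spns1 KO, with no overlap, and 0.0370 to 0.0689 in FeO. The ratio of Psmb8 to Psmb5 was 0.0764 to 0.2 in WT, 0.0819 to 0.211 in Spns1 KO and 0.0395 to 0.217 in FeO, so the 3 groups overlapped. Psmb9 to Psmb6 also overlapped, at 0.0187 to 0.0597, 0.0332 to 0.0778 and 0.0180 to 0.0538. These ratios are values only. Over the 14 standard core subunits, 14 rose in FeO (100%, against 22.4% of all genes) and 6 in Spns1 KO (42.9%, against 14%).

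**Figure D3:**
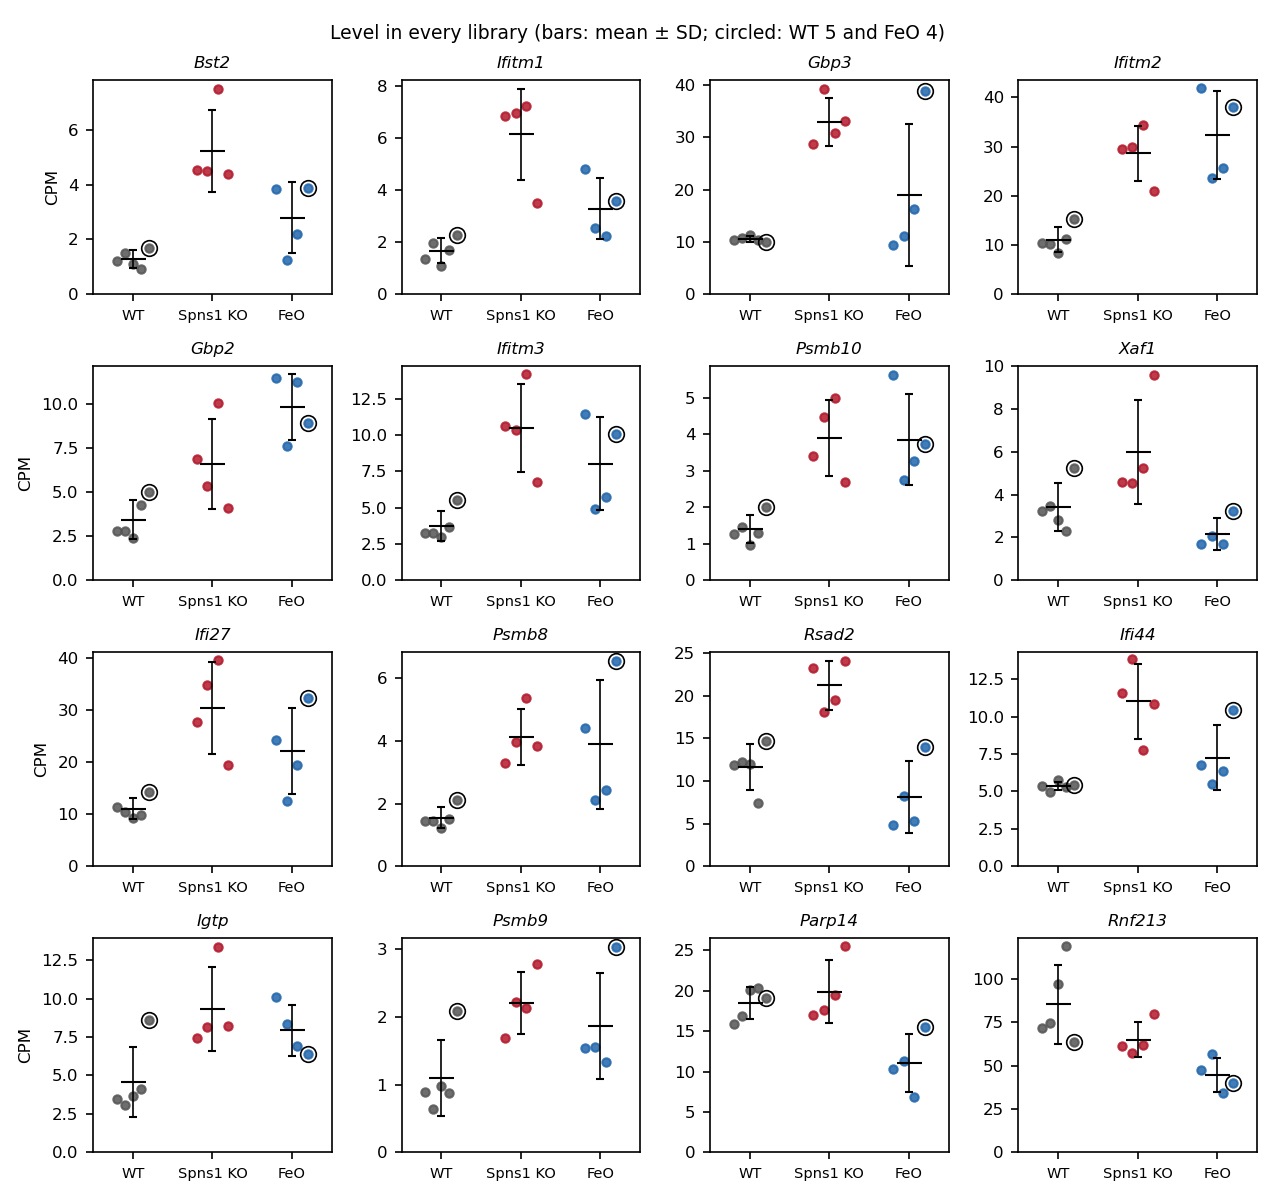
Each panel shows CPM on the vertical axis for 1 gene in every library of WT (n = 5), Spns1 KO (n = 4) and FeO (n = 4), with the mean and SD as bars and WT 5 and FeO 4 circled. Spns1 KO lies above WT without overlap for Bst2, Ifitm1, Ifitm2, Ifitm3, Gbp3, Ifi27, Ifi44, Psmb8, Psmb10 and Rsad2, and the FeO libraries of Parp14 and Rnf213 lie below WT.

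Among the other induced genes, Ifi27 and Ifi44 stood out in Spns1 KO. Ifi27 (a small mitochondrial protein; chromosome 12 from 103434211 to 103440239) had 11.5, 10.4, 9.32, 9.93 and 14.3 CPM in WT, 27.8, 34.8, 39.6 and 19.4 CPM in Spns1 KO and 24.4, 12.6, 19.4 and 32.4 CPM in FeO. FeO 2 overlapped WT. Ifi27 rose by 1.46 in Spns1 KO (standard error 0.25, adjusted p = 0.00132) and by 1.0 in FeO (0.25, adjusted p = 0.00558). Ifi44 (chromosome 3 from 151730922 to 151749960) was steady in WT, with 5.36, 4.99, 5.73, 5.30 and 5.44 CPM, and had 11.6, 13.9, 7.78 and 10.8 CPM in Spns1 KO. In FeO it had 6.75, 5.51, 6.35 and 10.4 CPM, with only FeO 4 in the Spns1 KO range. Ifi44 rose by 1.04 in Spns1 KO (standard error 0.21, adjusted p = 0.00299), and the value in FeO was 0.43 (0.21, adjusted p = 0.0983). Ifi35 was upregulated in FeO (0.71, standard error 0.20, adjusted p = 0.011), with 0.42 in Spns1 KO (0.20, adjusted p = 0.147).

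Parp14, an ADP-ribosyltransferase, and Rnf213, a very large ubiquitin ligase, were downregulated in FeO. Parp14 ranged from 15.9 to 20.4 CPM in WT, 17.0 to 25.5 in Spns1 KO and 6.82 to 15.5 in FeO. Rnf213 ranged from 63.9 to 119 CPM in WT, 57.1 to 79.9 in Spns1 KO and 34.1 to 56.9 in FeO. In FeO their log2 fold changes were -0.75 (standard error 0.21, adjusted p = 0.0101) and -0.93 (0.20, adjusted p = 0.0023). Both FeO calls ended once the trend on length and GC was taken out, where the values were -0.18 and -0.17. In Spns1 KO their values were 0.11 (0.20, adjusted p = 0.724) and -0.39 (0.20, adjusted p = 0.167).

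Of the 9 antiviral effectors that act on RNA or nucleotides, 2 rose in Spns1 KO (22.2%, against 14% of all genes). In FeO 1 rose and 1 fell (11.1% each, below the 22.4% and 19.7% of all genes). Rsad2 (viperin, which makes a chain-terminating nucleotide; chromosome 12 from 26442746 to 26456452) had 11.9, 12.2, 11.9, 7.38 and 14.7 CPM in WT, 23.2, 18.1, 19.5 and 24.0 CPM in Spns1 KO and 4.85, 8.27, 5.36 and 14 CPM in FeO. Every Spns1 KO library was above every WT and FeO library, and FeO 1 and FeO 3 were below every WT library. Rsad2 rose by 0.87 in Spns1 KO (standard error 0.27, adjusted p = 0.0318), and its value in FeO was -0.52 (0.28, adjusted p = 0.138). The Spns1 KO call was lost without Spns1 KO 1, 2 or 3 or any of WT 1 to 4. Without FeO 4, Rsad2 was called downregulated in FeO. The Ifit proteins bind viral RNA, and their pattern was mixed. Ifit3 was upregulated in Spns1 KO (0.70, standard error 0.19, adjusted p = 0.0173; not called without Spns1 KO 2 or 3; 0.14 in FeO, adjusted p = 0.562), and Ifit1 in FeO (0.86, standard error 0.28, adjusted p = 0.0224; 0.15 in Spns1 KO, adjusted p = 0.718). Ifit2 passed in neither, with -0.29 and 0.06. Ifit1 in FeO lost its call without FeO 4, WT 1 or WT 3. Ifit3 shares 61.8% of its stretches of 31 bases with Ifit3b.

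The Mx proteins are GTPases that trap viral nucleoproteins. Mx2 was downregulated in FeO (-1.0, standard error 0.39, adjusted p = 0.0471), on a mean of 47.3 counts per library. Leaving out any library except Spns1 KO 4, WT 4 or FeO 4 ended that call. Mx1 ranged from 2.28 to 3.70 CPM in WT and 0.853 to 2.21 in FeO (-0.79, standard error 0.31, adjusted p = 0.0515). DESeq2 and limma-voom called Mx1 downregulated in FeO, as did edgeR without Spns1 KO 4, FeO 2 or FeO 4. With the trend on length and GC removed, Mx1 was not called (-0.71, adjusted p = 0.0779). Oas1a, which makes the signal that activates RNase L, had values of 1.10 in Spns1 KO and 1.02 in FeO (adjusted p = 0.0896 and 0.0813) on 35.9 counts per library, and it shares 68.8% of its stretches of 31 bases with other genes, Oas1g foremost. Oasl2 had 0.53 and 0.01 (adjusted p = 0.175 and 0.973), and Isg20, an RNA exonuclease, -0.01 and 0.07 (adjusted p = 0.981 and 0.84).

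Among the factors that carry the signal, Irf7, a driver of type I interferon and itself interferon-induced, was upregulated in Spns1 KO. Irf7 ranged from 3.12 to 4.32 CPM in WT, 5.26 to 8.08 in Spns1 KO and 2.96 to 6.56 in FeO. Irf7 rose by 0.77 in Spns1 KO (standard error 0.23, adjusted p = 0.0251; not called without Spns1 KO 2 or 3 or WT 3), and its value in FeO was 0.35 (0.23, adjusted p = 0.222). Stat2 was downregulated in FeO (-0.64, standard error 0.23, adjusted p = 0.0318) and had -0.06 in Spns1 KO (0.22, adjusted p = 0.872). The Stat2 call was lost without WT 1, 2, 3 or 5, or without FeO 1 or 3. Irf1, which amplifies the response to interferon gamma, had 9.48 to 12.7 CPM in Spns1 KO, above the 5.37 to 9.42 of WT, but its value of 0.73 did not pass the test by edgeR (standard error 0.28, adjusted p = 0.0681). DESeq2 and limma-voom called it, as did edgeR without WT 5, FeO 3 or FeO 4. In FeO Irf1 had -0.15 (adjusted p = 0.674). Irf3, the constitutive factor behind early interferon, had 0.34 and 0.29 (adjusted p = 0.175 and 0.198), and Irf9 -0.08 and -0.23 (adjusted p = 0.768 and 0.287).

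Of the 4 sensors of foreign nucleic acid, 0 passed the test in either model (edgeR). At an unadjusted p under 0.05 there was 1 sensor in Spns1 KO, Zbp1, by edgeR, DESeq2 and limma-voom, and DESeq2 called it. There were 0 in FeO by any of these tools. No share of all genes at that unadjusted p is given here. Ddx58 (RIG-I) and Ifih1 (MDA5), which detect viral RNA, had -0.08 and 0.02 in Spns1 KO (adjusted p = 0.661 and 0.94) and -0.26 and -0.23 in FeO (adjusted p = 0.0995 and 0.251). Dhx58, which modulates them, had 0.18 and 0.21 (adjusted p = 0.595 and 0.487). Zbp1, a sensor of Z-form nucleic acid, had 1.40 and 0.61 on 21.3 counts per library (adjusted p = 0.0675 and 0.381). Isg15, a ubiquitin-like modifier, and Usp18, the protease that removes it, did not pass either (edgeR, DESeq2 and limma-voom, with Isg15 in Spns1 KO alone at an unadjusted p under 0.05 by each). Isg15 had 1.26 in Spns1 KO (standard error 0.53, adjusted p = 0.0946) and 0.64 in FeO (0.55, adjusted p = 0.35), with 28.8 counts per library, and Usp18 had 0.44 and 0.50 (adjusted p = 0.315 and 0.195).

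Set directly against FeO, 4 genes were higher in Spns1 KO (10.8%, against 6.76% of all genes tested) and 0 were lower (against 8.09%). At an unadjusted p under 0.05, 12 genes were higher and 1 lower (Ifit1) by edgeR, and 12 higher and 2 lower (Gbp2 and Ifit1) by DESeq2 and by limma-voom. The share of all genes at that unadjusted p is not given here, so these counts have no background. DESeq2 and limma-voom each called 8 higher and 0 lower (21.6%). They called 19.7% and 16.1% of all genes, but in either direction, so these shares are not matched to the 8 higher. For 7 genes, Ddx58, Mx2, Rsad2, Bst2, Rnf213, Parp14 and Xaf1, every Spns1 KO library lay above every FeO library (8.25% of all genes did so), and for 0 below (9.1%). The median log2 difference was 0.38, against 0.03 over all genes. Without FeO 4, the number higher was 10 (27.0%). Of all genes 17.7% were then called, again in either direction and so not matched. The 4 genes were Xaf1, Rsad2, Mx2 and Parp14. Rsad2 was 1.38 higher on the log2 scale (standard error 0.29, adjusted p = 0.00886), and Parp14 0.85 (0.22, adjusted p = 0.0187). Mx2 was 1.26 higher (0.40, adjusted p = 0.0459), which leaving out any library except WT 4, WT 5, FeO 2 or FeO 4 turned to not called. The Parp14 call ended without FeO 1.

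Xaf1 (an interferon-induced promoter of cell death; chromosome 11 from 72301629 to 72313733) had 3.21, 3.48, 2.80, 2.30 and 5.25 CPM in WT. It had 4.58, 4.54, 5.24 and 9.60 CPM in Spns1 KO and 1.67, 2.04, 1.70 and 3.22 CPM in FeO. Spns1 KO and FeO did not overlap, while WT overlapped both, the Spns1 KO range only through WT 5. The difference between the models was 1.47 (standard error 0.33, adjusted p = 0.0103), whereas against WT neither model passed the test by edgeR, with 0.81 in Spns1 KO (0.30, adjusted p = 0.0588) and -0.66 in FeO (0.31, adjusted p = 0.0952). DESeq2 and limma-voom called Xaf1 upregulated in Spns1 KO, as did edgeR without WT 5 or FeO 4, and without FeO 4 it was called downregulated in FeO.

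Length of transcript moved with these values in both models. The longest coding transcript (GENCODE M21, GRCm38) had a median of 1686.5 bases among the 16 genes upregulated in Spns1 KO and 2597 among the other 21. It was 1336.5 among the 12 upregulated in FeO and 5907 among the 4 downregulated. All genes tested showed a similar slope. For those of up to 1000 bases the median was 0.61 (Spns1 KO) and 0.80 (FeO), and for those over 4000 bases -0.28 and -0.42. The 6 interferon-stimulated genes of up to 1000 bases had medians of 1.48 and 1.06, and the 4 over 4000 bases -0.02 and -0.69. Removing from each library its trend on length and base composition left 13 genes upregulated and 0 downregulated in Spns1 KO, with a median of 0.59. That is 35.1% of the genes, against 10.7% of all genes under the same setting. In FeO the counts became 6 (16.2%, against 20.6% of all genes, so below the background) and 1 (2.70%, against 12.9%). Among genes that lost the upregulated call in FeO, Gbp3 kept 0.79 (adjusted p = 0.0524) and Igtp 0.60 (adjusted p = 0.0943), while Bst2 stood at 0.56, Ifi27 at 0.45 and Ifi35 at 0.28, and Ifi44 gained the call (0.59, adjusted p = 0.0341). Rnf213, Parp14 and Stat2 lost the downregulated call there, with -0.17, -0.18 and -0.46, and Mx2 kept it. In Spns1 KO, Irgm1 missed only the limit on size (0.50, adjusted p = 0.0228), and Irf7 (0.59, adjusted p = 0.0549) and Psmb9 (0.64, adjusted p = 0.19) missed the adjusted p. Xaf1, Rsad2, Mx2 and Parp14 remained higher in Spns1 KO than in FeO, among 7 genes.

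**Figure D4:**
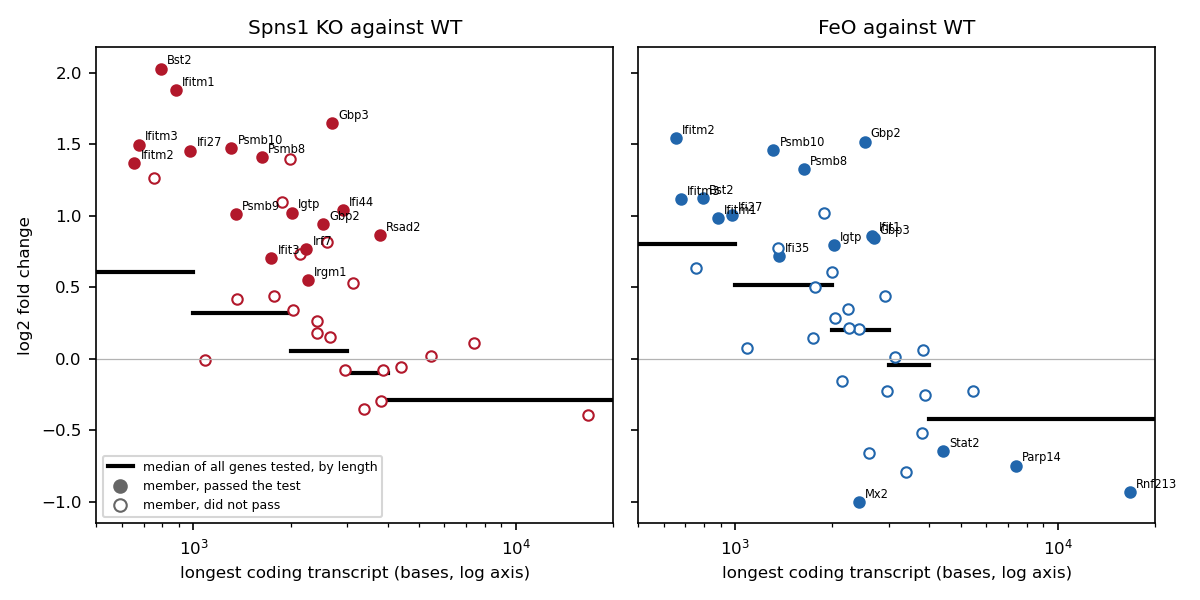
The horizontal axis is the length of the longest coding transcript on a log axis and the vertical axis the log2 fold change against WT, for the 37 genes (circles, filled where they passed the test) and the median of all genes tested within each span of length (black bars). As transcripts lengthen the bars fall from 0.61 to -0.28 (Spns1 KO) and from 0.80 to -0.42 (FeO), and Bst2, Ifitm1 and Gbp3 in Spns1 KO lie well above them.

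The ligands that drive these genes were near or at 0. Of 21 interferon genes, none passed the filter on low counts, and their summed level was 0.0272 to 0.318 CPM in WT, 0.0334 to 0.135 in Spns1 KO and 0 to 0.225 in FeO. Among the receptor chains, Ifnar1, which with Ifnar2 forms the type I receptor, had -0.02 in Spns1 KO and -0.08 in FeO (adjusted p = 0.893 and 0.569). Ifnar2 rose in both, by 0.80 and 0.53 (adjusted p = 0.00342 and 0.0169), and Il10rb, a chain of the type III receptor, by 1.11 and 1.16 (adjusted p = 0.00237 and 0.00089). Of the interferon gamma receptor, Ifngr1 fell by 0.60 in Spns1 KO (adjusted p = 0.0286) and had -0.06 in FeO, and Ifngr2 rose by 0.58 in FeO (adjusted p = 0.0167) and had 0.07 in Spns1 KO. Ifnlr1, the other chain of the type III receptor, and Jak2, a Janus kinase, fell in FeO by 1.37 and 0.56 (adjusted p = 0.0118 and 0.00482). With the trend on length and GC removed, Ifnlr1 kept that call (-1.23) and Jak2 lost it (-0.2).

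The shares of all genes called (for Spns1 KO, 14% higher and 7.55% lower than WT, and for FeO, 22.4% and 19.7%) are the background of the lists that follow. Of 15 adaptors and kinases of the sensor pathways, 0 were upregulated and 1 was downregulated in Spns1 KO, namely Tlr3 (-0.62, adjusted p = 0.0197), and 1 and 3 in FeO. Of 12 brakes on interferon signalling, 11 were tested, and 2 rose and 2 fell in Spns1 KO, against 1 and 3 in FeO. Ptpn6, a phosphatase, rose in both (0.57 and 0.86, adjusted p = 0.0245 and 0.00123), and Adar, an RNA editing enzyme, fell in both (-0.74 and -0.77, adjusted p = 0.0343 and 0.0158). Socs3 rose in Spns1 KO (1.06, adjusted p = 0.0252) and had 0.25 in FeO (adjusted p = 0.533). With the trend on length and GC removed, Adar was called in neither model (-0.56 and -0.42). Nor were Tlr3 (-0.35), Ptpn6 (0.41) and Socs3 (0.875) then called in Spns1 KO, whereas Ptpn6 kept its call in FeO (0.67). Of 60 further interferon-induced genes, 18 were upregulated and 1 downregulated in Spns1 KO, with a median of 0.44, and 6 and 7 in FeO, with a median of 0.09. That is 30% up in Spns1 KO, above the background, and in FeO 10% up and 11.7% down, both below it. Ifi27l2a rose in both (1.86 and 1.67, adjusted p = 0.00581 and 0.00544), Tgtp1 rose in Spns1 KO (1.34, adjusted p = 0.00795) and had 0.19 in FeO, and the helicases Mov10 and Helz2 fell in FeO by 1.2 and 1.05 (adjusted p = 0.00543 and 0.00668). Between the models 11 of the 60 were higher in Spns1 KO and 2 lower, where 6.76% of all genes were higher and 8.09% lower. The 11 included Gbp4 (1.48, adjusted p = 0.00914) and Tgtp1 (1.153, adjusted p = 0.0335).

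Of 14 genes of the class I pathway, 10 rose in Spns1 KO and 9 in FeO, which is 71.4% and 64.3%, with medians of 0.87 and 0.75. H2-T23, a nonclassical class I chain, rose by 1.73 in Spns1 KO (adjusted p = 0.00113) and had 0.42 in FeO, and Psme1, which opens the proteasome, rose by 1.33 and 1.43 (adjusted p = 0.00134 and 0.000562). Of 7 class II genes, 5 rose in Spns1 KO, while 4 rose and 1 fell in FeO. Cd74, the class II chaperone, rose by 2.02 in Spns1 KO (adjusted p = 0.00076) and 0.84 in FeO (adjusted p = 0.0393). Ciita, the activator of class II genes, fell by 1.33 in FeO (adjusted p = 0.00487) and had 0.12 in Spns1 KO.

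Markers of other cells moved beside these genes, and their counts too are to be read against the background shares of all genes. Of 14 macrophage markers, 13 were tested, and of them 4 rose in Spns1 KO and 8 in FeO. Their summed level was 60.7 to 78.9 CPM in WT, highest in WT 2. It was 88.0 to 142 in Spns1 KO, highest in Spns1 KO 3, and 106 to 199 in FeO, highest in FeO 4. B or plasma cell markers summed to 14.6 to 39.3 CPM in WT, highest in WT 5, 31 to 145 in Spns1 KO, highest in Spns1 KO 3, and 36.0 to 110 in FeO, highest in FeO 4; 4 of 10 rose in Spns1 KO and 3 in FeO, and 1 fell in FeO. T or NK cell markers summed to 4.94 to 6.29, 5.96 to 13.7 and 3.55 to 5.90 CPM. They were highest in WT 2, Spns1 KO 4 and FeO 1, and 7 of 11 were tested. Of these, 2 rose in Spns1 KO, while in FeO 1 rose and 1 fell. Neutrophil markers summed to 1.70 to 4.77, 2.36 to 7.57 and 2.59 to 4.84 CPM, highest in WT 4, Spns1 KO 1 and FeO 4. Of 8 such markers, 4 were tested and 0 passed in either model. Plasmacytoid dendritic cell markers, of which 6 of 6 were tested, had 1 up and 1 down in Spns1 KO and 3 down in FeO. Their summed level was 60.2 to 76.1, 45.9 to 76.9 and 31.8 to 40.2 CPM, of which the widely expressed Tcf4 made up most. Proximal tubule markers summed to 4490 to 6387 CPM in WT, 9287 to 11000 in Spns1 KO, where 9 of 13 rose, and 2480 to 6090 in FeO, where 2 rose and 2 fell. Markers of loop, distal tubule and collecting duct summed to 2223 to 4910 CPM in WT, 3680 to 4786 in Spns1 KO, where 4 of 12 rose and 2 fell, and 2435 to 6258 in FeO, where 4 rose. Those of podocytes summed to 195 to 336, 255 to 331 and 290 to 658 CPM, and 2 of 6 rose in Spns1 KO and 3 in FeO, so the captured RNA was not of proximal tubule alone. Endothelial and fibroblast markers summed to 304 to 364 and 93.5 to 138 CPM in WT, 437 to 485 and 159 to 205 in Spns1 KO, and 277 to 497 and 73.9 to 164 in FeO. Their part in the changes of the interferon-stimulated genes was not tested, and in bulk RNA a change in the share of a cell type cannot be told apart from a change in RNA per cell.

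Within the 37 genes, levels per length spread widely. Divided by transcript length, the WT mean was highest for Irf3 (21.4 CPM per kilobase), Ifitm2 (16.9), Irgm1 (12.3), Ddx58 (12.3) and Ifi27 (11.4), and lowest for Zbp1 (0.182) and Oas1a (0.339). In Spns1 KO the highest were Ifitm2 (43.7), Ifi27 (31.1) and Irf3 (27.2). In FeO they were Ifitm2 (49.3), Irf3 (26.1) and Ifi27 (22.7). Summed over the 37 genes, CPM was 432 to 477 in WT, 540 to 617 in Spns1 KO and 398 to 552 in FeO, and FeO 4 was the highest FeO library.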

How the data were processed

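RNA tagged with 4-thiouracil was measured in 13 kidney libraries (4 Spns1 KO, 5 WT, 4 FeO), grouped by their titles. The authors deposited estimated counts per gene symbol, whole numbers without normalization. Per the labels' processing notes, tools were bcl2fastq 2.19, kallisto 0.44.0 and DESeq2 with GRCm38, whereas the methods describe trimming, STAR alignment to mm10 and HTSeq. The deposited counts were scaled with TMM factors and tested with edgeR 4.0.16 (glmQLFit, glmQLFTest, filterByExpr) in a single fit of 13 libraries in R 4.3.3, with Benjamini-Hochberg adjustment over 16468 genes; each standard error is the log2 fold change over the root of its F statistic. Genes were called at adjusted p under 0.05 and a log2 fold change beyond 0.5. CPM values use the TMM-scaled totals. The fit was tested on simulated data. Alternatives used DESeq2 1.42.0, limma-voom (limma 3.58.1), other scalings and filters, thinning to 23068023 counts, a length and GC trend (mgcv 1.9.3; lengths for 98.3% of genes tested), a replicate block and leaving out each library. Labels do not say whether libraries came from separate mice, so p-values measure only the spread between them. The members, pathway lists and markers were chosen with earlier results of these data known. Values in every library are given for the 14 called members with the largest change and at least 50 counts on average, and of each pathway list at most 2 genes a direction are named, plus Psmb5, Psmb6, Psmb7 and the subunits of the type I and gamma receptors. Parp14, Rnf213, Irf7, Irgm1, Ifit1, Ifit3 and the other members are given by ranges or fold changes. The counts of the receptor and kinase list are not reported here. Python 3.11.15, pandas 2.3.3, numpy 2.4.6 and matplotlib 3.10.9 summarised and drew the values.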

Additional observations from a re-analysis of the deposited data

Results flagged for a closer look

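Of 111 sets of libraries (37 genes in 3 groups), 11 held a library far from the others of its group by Dixon's criterion, where chance alone gives about 1 in 20 (5.55 of 111). In Spns1 KO these were Irf1 in Spns1 KO 1 (9.48 CPM), Bst2 and Igtp in Spns1 KO 3 (7.52 and 13.4 CPM), and Isg20, Ifitm1 and Xaf1 in Spns1 KO 4 (2.15, 3.52 and 9.60 CPM). In WT they were Ifitm3, Igtp and Psmb9 in WT 5 (5.52, 8.61 and 2.08 CPM), and in FeO Usp18 and Psmb9 in FeO 4 (2.59 and 3.04 CPM). The WT and FeO values all came from the libraries that stood apart over the 37 genes. Irf1 in Spns1 KO 1 and Ifitm1 in Spns1 KO 4 were low, and the other 9 were high.

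The change against WT differed between the models by the direct test for 4 genes. The log2 difference (Spns1 KO minus FeO) was 1.47 for Xaf1, 1.38 for Rsad2, 1.26 for Mx2 and 0.85 for Parp14.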

How the results depend on the processing

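In Spns1 KO, the 16 upregulated genes became 9 when library totals alone set the scale (10.6% of all genes). They became 9 to 19 when 1 library was left out. The count was 9 without Spns1 KO 3 (9.18% of all genes) and 19 without WT 5 or FeO 4 (13.6% and 15.1%). The other alternatives gave 11 (6.34% of all genes) to 20 (17.0% of all genes). The number downregulated was 0 in each fit, where 2.11% to 16.1% of all genes were. Under all 25 alternatives 8 genes kept the call, Ifi27, Ifi44, Bst2, Ifitm1, Ifitm2, Gbp3, Psmb8 and Psmb10. In FeO, the 12 upregulated genes became 6 with the length and GC trend removed (20.6% of all genes). They became 9 to 13 on leaving out a library (19.7% to 24.2% of all genes). Ifitm2, Gbp2, Psmb8 and Psmb10 kept the call under every alternative. The 4 downregulated genes became 1 with the length and GC trend removed (12.9% of all genes). They became 2 when all genes with a count were tested (11.4%). Leaving out a library gave 2 to 7 (14% to 21.2% of all genes), with 7 without FeO 4 (18.6%). Of the 4 genes, 0 kept the call throughout. Between the models, the 4 genes became 8 by DESeq2, 8 by limma-voom and 7 without the trend on length and GC. Of all genes 19.7%, 16.1% and 16.0% were then called in either direction. They became 2 with only the 2 groups compared and 2 with library totals alone (6.59% and 13.5% of all genes). Leaving out a library gave 3 to 10 (7.08% to 18.5% of all genes), with 10 without FeO 4 (17.7%). Rsad2 and Xaf1 kept the call under every alternative. The cause of these shifts was not tested.

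The median log2 fold change of the 37 genes stayed between 0.59 and 0.83 in Spns1 KO, 0.20 and 0.49 in FeO, and 0.25 and 0.50 between the models. Among single genes no called value changed sign.

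Replicate numbers are shared between groups, but 4 of 12 same-numbered pairs had deviations that correlated above 0.1 and 3 of 12 libraries correlated best with their own number, so the numbers were not taken as pairs. With a replicate block 15 genes were upregulated in Spns1 KO (11.7% of all genes were then called). In FeO 12 were upregulated and 4 downregulated (20.2% and 19.4% of all genes). Between the models 3 were higher in Spns1 KO (11.6% of all genes, in either direction). The block ended the calls of Irf7 and Rsad2 in Spns1 KO, of Gbp3 and Mx2 in FeO and of Mx2 between the models, and added Xaf1 in Spns1 KO and Mx1 (downregulated) and Psmb9 in FeO. The block together with the length and GC trend gave 11 in Spns1 KO (29.7%, against 6.34% of all genes). In FeO it gave 6 upregulated and 0 downregulated (15.9% and 11.3% of all genes). Between the models it gave 5 (11.8% of all genes, in either direction).

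Low counts limit Zbp1, Isg15, Oas1a and Mx2, whose standard errors were 0.36 or more. With 4 or 5 libraries a group, 1 library can decide a call, as the counts without WT 5, FeO 4 or Spns1 KO 3 show.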
